A study of Rattus norvegicus with 9 samples.

Results

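Gene expression was compared between rat white matter lesions captured at 28 and at 14 days post lesion (dpl), with 3 arrays at each time. Per the labels, the caudal cerebellar peduncle (CCP), a tract that carries axons into the cerebellum, was demyelinated with 0.1% ethidium bromide in Sprague Dawley rats aged 12 weeks at 0 dpl. The lesions were isolated by laser capture microdissection from frozen brains, and biotin-labelled RNA was hybridised to Illumina arrays. The 6 arrays were chosen by their titles from the 9 arrays of the series. The other 3 arrays, from lesions at 5 dpl, entered the fit only through the shared estimate of the spread and the test between the 2 intervals. Every group carried the lesion and the toxin, and no unlesioned tissue is among the groups compared. The series calls the 3 arrays of a time point biological replicates, but does not say whether each came from its own animal, so each p-value reflects how far these arrays varied, which may be technical.

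Ethidium bromide destroys the glial cells at the site of injection and leaves axons in place. Microglia and macrophages then clear the myelin debris, oligodendrocyte progenitors divide and move in, and their daughter cells differentiate and wrap the bare axons with new myelin. New myelin needs large amounts of cholesterol and of glycosphingolipids, which oligodendrocytes synthesise for themselves. Retinoid X receptors, named in the title of the series, are nuclear receptors that form partnerships with retinoic acid, thyroid hormone and lipid-sensing receptors, and Rxrg is one of them. The comparison between 14 and 28 dpl addresses which genes change after the early period of repair.

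Levels are the authors' normalized log2 values, on which the background was estimated at 7.31. A difference is the 28 dpl mean minus the 14 dpl mean on that scale, with its standard error (SE) from limma, and a gene was called higher or lower at a Benjamini-Hochberg adjusted p under 0.05. The scale compresses dim signals, so differences of dim genes are understated. On the raw table, 38.1% to 41.4% of 22226 targets were detected per array, and median signals were 79.6 to 94.1. The 14 dpl arrays had raw medians of 84, 79.6 and 80.6, each below every 28 dpl median (91.4, 86.5 and 88.9). Raw brightness thus differed between the compared times, and its part in the calls was not tested. In this bulk material a smaller number of cells of a type and less RNA per cell cannot be told apart. The array of replicate 1 of 5 dpl stood apart from the other 5 dpl arrays, at -23.74 on the first principal component against -37.70 for each of them. Markers of the tissue were present: Mbp, the myelin basic protein, lay at 8.91 to 9.52 at 14 dpl and 9.99 to 10.21 at 28 dpl. Gfap, the intermediate filament of astrocytes, lay between 13.46 and 14.68 on the 6 arrays. Gabra6, a receptor subunit of cerebellar granule neurons, lay below the background on all 6, the 1 gene to do so of 9 measured for cerebellar and brainstem neurons. That list was dim, with median levels of 7.22 at 14 dpl and 7.55 at 28 dpl. Of its differences 8 were positive and 1 negative, with a median of 0.31 and none called. With the 6 compared arrays alone 3 were called higher and 1 lower.

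Of 7574 named genes, 586 were higher at 28 dpl (7.74%) and 617 were lower (8.15%). The median difference of all genes was -0.01, and the median size of a difference was 0.12. A called difference reached 1 on the log2 scale, a factor of 2, in 68 genes that rose and 53 that fell. The levels of the 28 dpl arrays lay entirely above those at 14 dpl in 1459 genes (19.3%) and entirely below in 1567 genes (20.7%). Over all 10552 probes, unnamed ones included, 790 were higher (7.49%) and 789 lower (7.48%). The raw table, fitted separately, gave 677 higher (7.2%) and 555 lower (5.9%) of 9404 targets. Leaving out 1 of the compared arrays lowered the counts of called probes to between 442 and 674 higher and between 389 and 652 lower. The 2 lowest counts came on omitting replicate 1 of 14 dpl (442 higher and 394 lower) and on omitting replicate 3 of 28 dpl (474 higher and 389 lower), and leaving out replicate 1 of 5 dpl raised them to 1082 and 968. Under the 18 other settings of the fit, 545 of the 1203 called genes stayed past the threshold in every setting that tested them. Genes called higher or lower by name below are of that kind unless their text says otherwise.

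**Figure D1:**
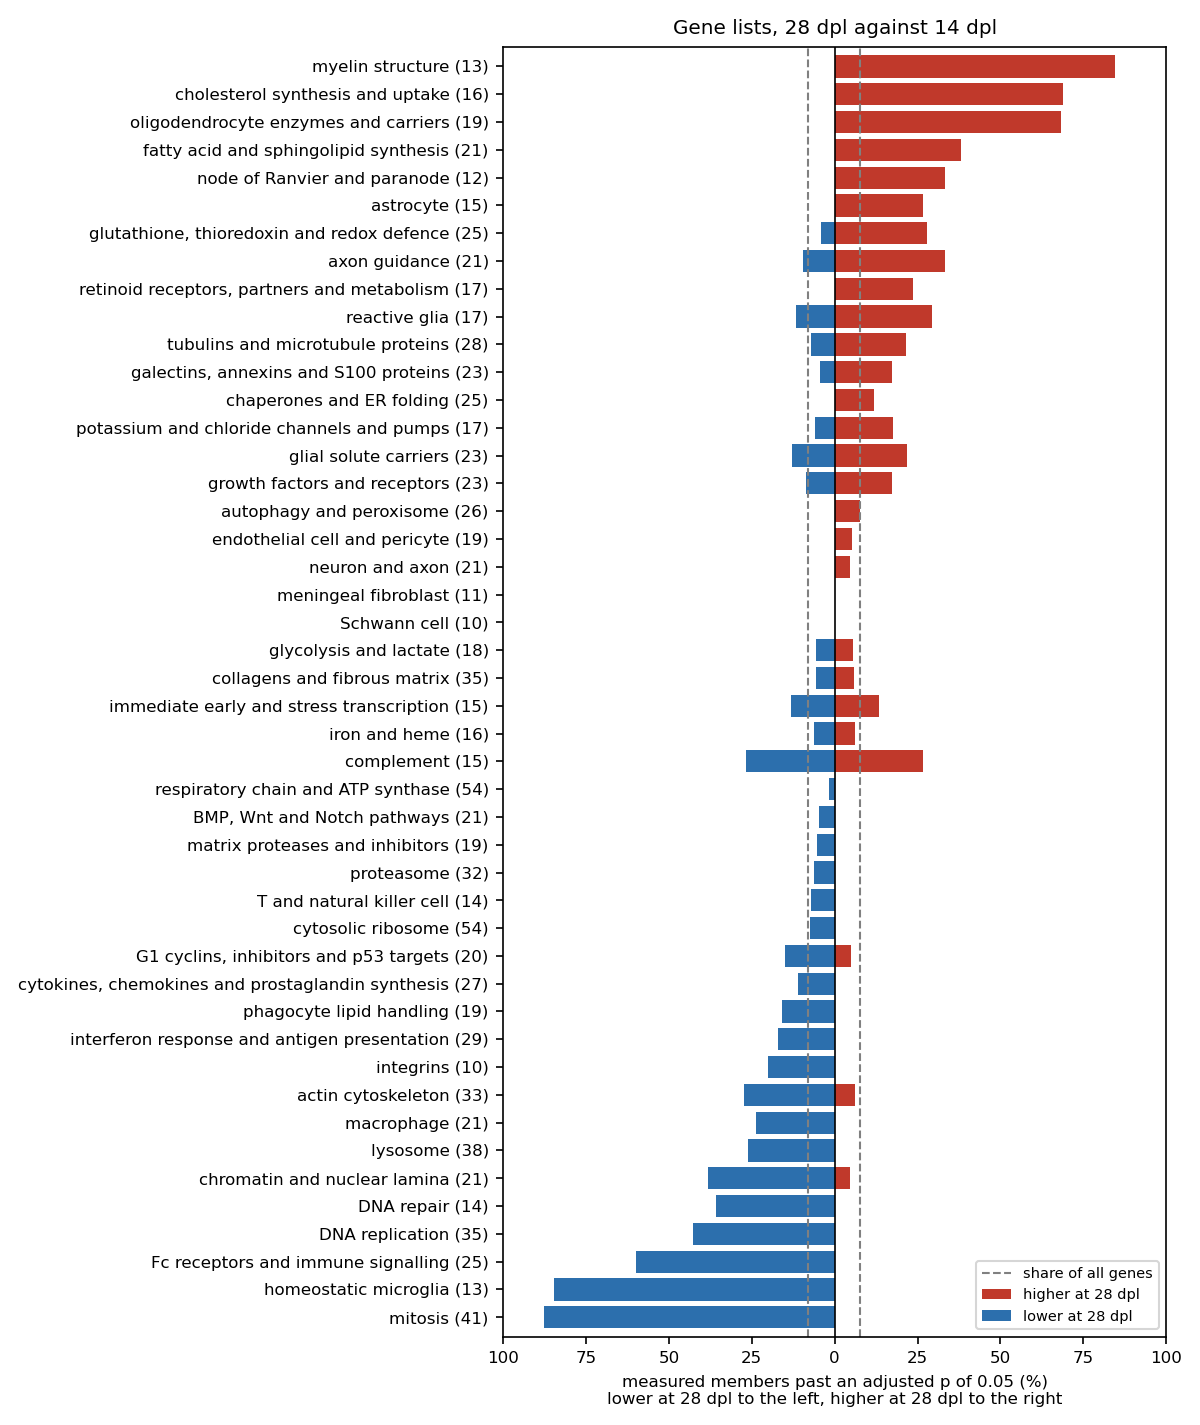
Share of the measured members of each gene list (number of measured members in parentheses, lists with at least 10 shown) that were called lower (blue, to the left) or higher (red, to the right) at 28 dpl, in percent. The dashed lines are the shares over all 7574 genes, 7.74% higher and 8.15% lower. Myelin structure has the longest red bar at 84.6% and mitosis the longest blue bar at 87.8%.

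Genes of myelin and of the mature oligodendrocyte rose together between 14 and 28 dpl. Of 13 measured genes for myelin structure, 11 were higher, none was lower, and the median difference was 0.91. Of 19 measured genes for enzymes, carriers and receptors of oligodendrocytes, 13 were higher, none was lower, and the median difference was 1.00. Over all genes 7.74% were higher and the median difference was -0.01. Between 9 and 12 of the myelin structure genes, and between 10 and 13 of the enzyme genes, were higher when 1 array was left out.

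Mog, a glycoprotein of the outermost myelin layer, was at 11.68, 12.35 and 12.07 on the 14 dpl arrays and at 13.82, 13.60 and 13.79 on the 28 dpl arrays. The groups were well separated, and the difference was 1.71 (SE 0.28, adjusted p = 0.00563). Mal, a proteolipid of compact myelin, went from 12.20, 12.77 and 12.84 to 14.37, 14.17 and 14.59, a difference of 1.77 (SE 0.32, adjusted p = 0.00859). The lowest 14 dpl value of both Mog and Mal was that of replicate 1, and the lowest 28 dpl value that of replicate 2. Mobp, a basic protein of compact myelin, rose by 1.65 (SE 0.20), and Mbp by 0.82 (SE 0.14). Mag, which sits on the innermost myelin layer and contacts the axon, was at 8.02, 8.38 and 8.23 and then at 8.89, 8.89 and 8.78, a smaller step of 0.64 (SE 0.09). Gjb1, connexin 32, a gap junction protein of oligodendrocytes, rose from 7.33, 7.37 and 7.26, near the background, to 7.90, 7.81 and 7.88. Pllp, plasmolipin, rose by 1.02 (SE 0.12), Opalin, a membrane protein of late oligodendrocytes, by 0.93 (SE 0.15), and Omg by 0.91 (SE 0.17). Cnp, the cyclic nucleotide phosphodiesterase of uncompacted myelin, averaged 14.11 and 14.46 and was not called (adjusted p = 0.196). Cmtm5 was not called either (adjusted p = 0.0538).

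Klk6, a secreted serine protease abundant in oligodendrocytes, was at 10.74, 10.77 and 10.71 at 14 dpl and at 12.80, 12.74 and 12.90 at 28 dpl. The arrays of each time lay close together, and the difference between the times was 2.07 (SE 0.13, adjusted p = 0.00014). Ermn, ermin, a cytoskeletal protein of late oligodendrocytes, rose by 2.15 (SE 0.25) and Car2, the cytosolic carbonic anhydrase of oligodendrocytes, by 1.71 (SE 0.17). Qdpr, which regenerates tetrahydrobiopterin, went from 8.20, 8.08 and 8.20 to 9.48, 9.56 and 9.69. Gsn, the actin-severing protein gelsolin, went from 11.58, 11.73 and 11.72 to 13.03, 13.14 and 13.04. These genes had narrow groups, and their adjusted p-values were 8.05e-05 for Qdpr and 7.82e-05 for Gsn. Enpp2, which makes lysophosphatidic acid, rose by 1.31 (SE 0.13), Gpr37, an orphan receptor, by 1.40, Cryab, a small heat shock protein, by 1.49, and Ninj2, an adhesion protein, by 1.00. The transferrin gene Tf averaged 14.38 and 14.36 (adjusted p = 0.952), and the deacetylase gene Sirt2 averaged 10.92 and 10.99 (adjusted p = 0.842). Enpp6, an enzyme of newly formed oligodendrocytes, had a difference of -0.29 (adjusted p = 0.358).

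Some transcription factors of the lineage were called higher, and few progenitor markers were called. The 9 measured lineage factors had a median difference of 0.35. On the 28 dpl arrays 5 of them lay entirely above 14 dpl (19.3% of all genes did) and 1 entirely below (20.7%). Of the 9, 2 were called higher (22.2%, against 7.74% of all genes), Nkx6-2 and Sox8, with differences of 1.08 and 0.44. Both calls were lost in several settings: the adjusted p of Nkx6-2 reached 0.122 on omitting replicate 1 of 14 dpl and that of Sox8 reached 0.0882 on omitting replicate 1 of 28 dpl. Sox10, which drives myelin gene transcription, averaged 11.38 and 11.91 (difference 0.52, adjusted p = 0.052), and Olig1 averaged 13.57 and 13.92 (adjusted p = 0.0571). Both lay near the threshold: Sox10 was called higher in 7 of 19 other settings, with adjusted p from 0.0215 to 0.168, and Olig1 in 3, with adjusted p from 0.0311 to 0.17. The number of lineage factors called higher ran from 0 to 4 over the settings, with 0 on omitting replicate 1 of 14 dpl or replicate 1 or 3 of 28 dpl, and 4 with array weights or cyclic loess. Of 9 measured progenitor genes none was higher and 1 was lower (11.1%, against 8.15% of all genes), with a list median of -0.06. The lower gene was Dscam, an adhesion protein, with a difference of -0.45. Its adjusted p of 0.0212 reached 0.0739 on omitting replicate 3 of 28 dpl. Pdgfra, the receptor for the main growth factor of progenitors, was at a mean of 9.01 at 14 dpl and 8.93 at 28 dpl (adjusted p = 0.769). Cspg4, the progenitor proteoglycan NG2, averaged 10.59 and 10.35 (adjusted p = 0.451).

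Hapln2, which links hyaluronan to proteoglycans in the matrix around nodes of Ranvier, had the largest difference among the 586 genes called higher. It was at 7.94, 7.71 and 7.84 at 14 dpl and at 10.61, 10.97 and 10.66 at 28 dpl. The difference was 2.91 (SE 0.20, adjusted p = 0.000187), a factor of 7.54 on the linear scale. Of 12 measured genes of the node and the paranode 4 were called higher (33.3%, against 7.74% of all genes) and none lower, with a list median of 0.11. Cntn2, an adhesion protein of the zone beside the paranode, rose from 7.31, 7.35 and 7.33 to 7.98, 8.23 and 7.88. Nfasc, neurofascin, a scaffold of node and paranode, averaged 7.40 and 7.39 (adjusted p = 0.941), and Cntn1 averaged 8.36 and 8.37 (adjusted p = 0.973). Schwann cells, the myelinating glia of peripheral nerve, can enter such lesions. Of 10 measured Schwann cell genes none was called in either direction by limma, and 0 to 2 were higher when 1 array was left out. Their median difference was 0.24, with 8 positive and 2 negative. At an unadjusted p under 0.05, 3 were higher and 0 lower, while 2372 of all 7574 genes passed in either direction. Pmp22 averaged 14.29 and 14.66 (adjusted p = 0.274).

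**Figure D2:**
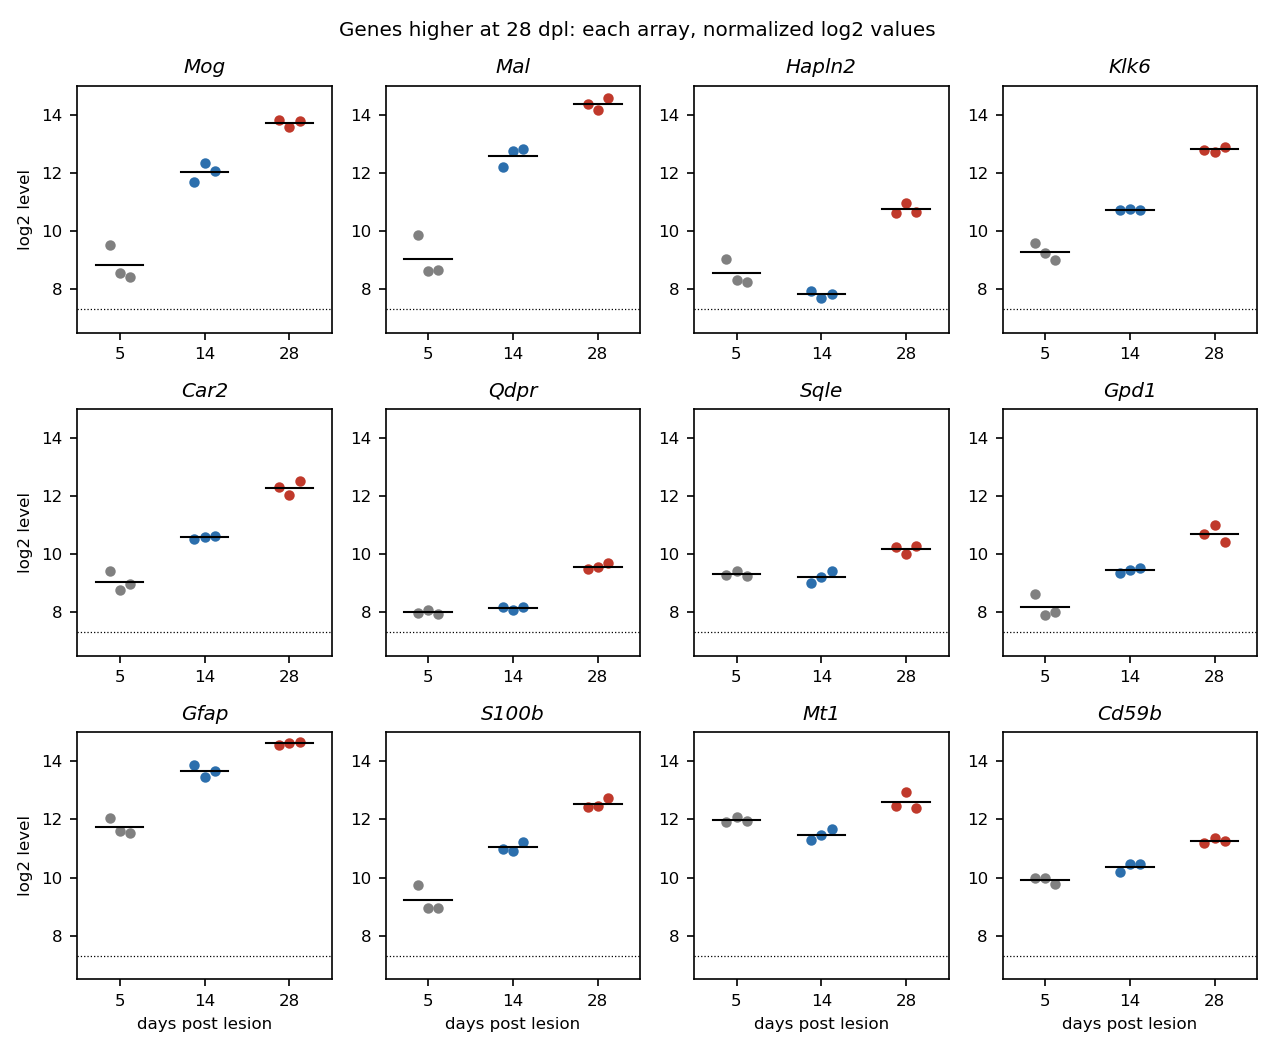
Normalized log2 level of 12 genes higher at 28 dpl on each array at 5 (grey), 14 (blue) and 28 (red) days post lesion; each point is 1 array, the bar is the mean of 3, and the dotted line is the estimated background of 7.31. In every panel the 28 dpl points lie above all 14 dpl points, and Hapln2 shows the widest step at 2.91.

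Genes of cholesterol synthesis rose together, and part of the genes for fatty acids and sphingolipids rose. Of 16 measured cholesterol genes 11 were called higher (background 7.74%) and none lower, with a median difference of 0.66. Between 9 and 12 were higher when 1 array was left out. Sqle, squalene epoxidase, the first oxygen-dependent step of the pathway, was at 9.00, 9.22 and 9.44 and then at 10.25, 10.01 and 10.29. The difference was 0.96 (SE 0.12, adjusted p = 0.00198), and the groups did not overlap. Fdft1, squalene synthase, went from 8.02, 8.22 and 8.14 to 8.96, 8.67 and 9.26. Cyp51, which removes a methyl group from lanosterol, went from 7.99, 8.24 and 8.22 to 8.92, 8.74 and 9.02. The steps before squalene rose too, with 0.48 for Pmvk, 0.90 for Idi1 and 0.52 for Fdps. Later steps rose by 0.70 (Tm7sf2) and 0.62 (Dhcr7, the last reduction to cholesterol), and Acat2, the cytosolic enzyme that joins the first acetyl units, rose by 0.83. Mvd, Nsdhl, Hsd17b7, Ebp and Stard4 were not called, with differences between -0.01 and 0.36.

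Of 21 measured genes for fatty acids and sphingolipids, 8 were called higher (38.1%, against 7.74% of all genes) and none lower, and the median was 0.17. That count fell to 3 on omitting replicate 1 of 14 dpl, to 4 on omitting replicate 3 of 14 dpl and to 5 on omitting replicate 3 of 28 dpl. Scd2, a desaturase that makes monounsaturated fatty acids in brain, went from 13.23, 13.45 and 13.45 to 14.07, 13.90 and 14.26. Gpd1, which makes the glycerol phosphate backbone of lipids, went from 9.37, 9.45 and 9.54 to 10.69, 11.01 and 10.43, and was the largest riser on the list at 1.25 (SE 0.19). Acsl1, which activates long-chain fatty acids, rose by 0.70 (SE 0.10). The enzymes that start fatty acid synthesis were not called. Acly, ATP citrate lyase, averaged 11.03 at both times (adjusted p = 0.988), and Acaca, acetyl-CoA carboxylase, averaged 7.35 and 7.31 (adjusted p = 0.596). Ugt8, which makes galactosylceramide, the typical glycolipid of myelin, went from 12.54, 13.02 and 12.89 to 13.97, 13.59 and 13.80. Its adjusted p of 0.0181 reached 0.0673 on omitting replicate 1 of 14 dpl, 0.0653 on omitting replicate 1 of 28 dpl and 0.0598 on omitting replicate 3 of 28 dpl.

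**Figure D3:**
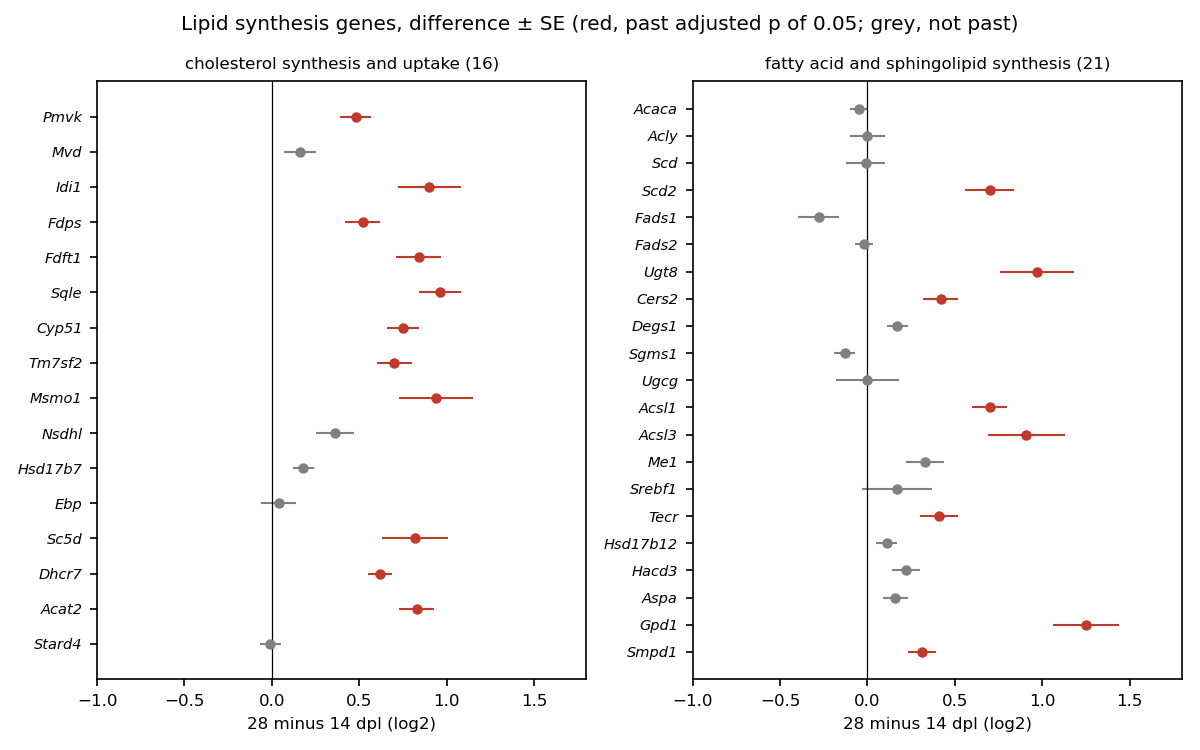
Difference between 28 and 14 dpl (log2, point) with its standard error (bar) for each measured gene of cholesterol synthesis and uptake (left, in pathway order for the synthesis steps up to Dhcr7) and of fatty acid and sphingolipid synthesis (right); red marks genes called higher and grey those not called. On the left 11 of 16 genes are red, and on the right 8 of 21.

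Some astrocyte genes and some redox defence genes rose. Of 15 measured astrocyte genes 4 were called higher (26.7%, against 7.74% of all genes) and none lower, with a median of 0.44; the count was 8 on omitting replicate 1 of 5 dpl or with the 6 compared arrays alone. Gfap went from 13.89, 13.46 and 13.67 to 14.57, 14.64 and 14.68 (difference 0.95, SE 0.15). S100b, a calcium-binding protein of astrocytes and oligodendrocytes, rose from a mean of 11.04 to 12.43, 12.46 and 12.74, without overlap (SE 0.20, adjusted p = 0.00276). Mlc1, a membrane protein of astrocyte endfeet, rose by 0.44 (SE 0.08). Aqp4, the water channel of astrocyte endfeet, lay below the background on all 6 arrays. Slc1a3, a glutamate transporter, had a difference of -0.42 (adjusted p = 0.166). Chi3l1, a chitinase-like protein of reactive astrocytes, was at 8.41, 8.08 and 8.27 and then at 9.29, 10.25 and 10.35. Its 28 dpl arrays were spread over more than 1 unit, with replicate 1 the lowest, and all lay above 14 dpl (difference 1.71, SE 0.31, adjusted p = 0.00873).

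Of 25 measured genes for glutathione, thioredoxin and redox defence, 7 were higher (28.0%) and 1 lower (4.0%), with a list median of 0.11; the number higher was 4 on omitting replicate 3 of 28 dpl. Mt3, the brain metallothionein, went from 12.21, 12.09 and 12.23 to 13.71, 13.79 and 13.98. Mt1, a zinc-binding metallothionein, went from 11.30, 11.46 and 11.67 to 12.48, 12.96 and 12.41. The separation of groups was clear for both, with differences of 1.65 (SE 0.25) and 1.14 (SE 0.15). Nqo1, a quinone reductase, rose by 0.89 (SE 0.16) and Gstp1, a glutathione transferase, by 0.68 (SE 0.10); the other probe of Gstp1 had a difference of 0.66 and was not called. Among 25 chaperone genes 3 were higher (12.0%, against 7.74% of all genes) and none lower, while 17 had a negative difference and the median was -0.06. Hspa2, a member of the 70 kDa heat shock protein family, rose by 1.24 (SE 0.11), Hspb8, a small heat shock protein, by 1.01 (SE 0.12), and Ddit3, a stress-induced transcription factor, by 0.57 (SE 0.09).

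The genes of cell division fell. Of 41 measured mitosis genes 36 were called lower (background 8.15%) and none higher, with a median difference of -0.86 and a range of medians from -1.19 to -0.78 over the settings. Between 32 and 39 were lower when 1 array was left out. Of 35 measured genes of DNA replication 15 were called lower and none higher, with a median of -0.34; the count was 10 on omitting replicate 3 of 14 dpl, 21 on omitting replicate 1 of 5 dpl and 23 with array weights. All 35 replication genes and all 41 mitosis genes had a negative difference.

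Promoters of 4 falling mitosis genes are shown here because 20 of the 31 mitosis genes called lower that have a promoter in the table hold both motifs marked in them. These 4 have the smallest p-values among those 20. The promoters are from RefSeq on GRCr8, each from 250 bases before to 50 bases after the annotated start, written 5′ to 3′ on the strand of the gene. Capitals mark TTTGAA, the core of the cell cycle genes homology region (CHR), and CCAAT, the box bound by the factor NF-Y, on either strand (TTCAAA and ATTGG on the other strand). Ttk is at chr8:93634389-93634688 on the plus strand, Prc1 at chr1:143659231-143659530 on the plus strand, Cks2 at chr17:13727470-13727769 on the minus strand, and Cdk1 at chr20:19265043-19265342 on the plus strand.
Ttk: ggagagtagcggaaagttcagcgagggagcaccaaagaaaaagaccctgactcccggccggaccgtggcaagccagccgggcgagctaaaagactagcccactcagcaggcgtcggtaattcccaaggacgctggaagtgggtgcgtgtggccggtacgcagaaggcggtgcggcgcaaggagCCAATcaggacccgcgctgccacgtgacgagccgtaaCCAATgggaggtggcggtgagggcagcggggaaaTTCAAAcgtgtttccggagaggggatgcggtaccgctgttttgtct
Prc1: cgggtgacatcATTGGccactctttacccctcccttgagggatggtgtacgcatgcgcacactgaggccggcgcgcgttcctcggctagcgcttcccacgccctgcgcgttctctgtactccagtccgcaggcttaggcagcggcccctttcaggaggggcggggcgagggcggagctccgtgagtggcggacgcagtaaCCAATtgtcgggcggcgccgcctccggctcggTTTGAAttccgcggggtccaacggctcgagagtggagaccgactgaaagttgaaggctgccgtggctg
Cks2: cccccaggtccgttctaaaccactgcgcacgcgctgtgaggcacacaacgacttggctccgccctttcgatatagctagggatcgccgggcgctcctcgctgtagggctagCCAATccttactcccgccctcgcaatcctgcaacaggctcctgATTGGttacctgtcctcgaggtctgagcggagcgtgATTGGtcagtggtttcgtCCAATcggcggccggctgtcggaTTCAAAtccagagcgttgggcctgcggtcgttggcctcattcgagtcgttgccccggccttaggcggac
Cdk1: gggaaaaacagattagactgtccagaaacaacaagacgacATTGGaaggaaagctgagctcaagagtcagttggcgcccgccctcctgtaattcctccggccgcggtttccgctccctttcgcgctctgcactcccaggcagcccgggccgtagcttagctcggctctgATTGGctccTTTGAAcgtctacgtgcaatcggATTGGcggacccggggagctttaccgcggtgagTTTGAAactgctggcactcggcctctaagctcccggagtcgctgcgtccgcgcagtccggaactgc
The CHR nearest the start began at base 5 after it in Ttk and at bases -18, -19 and -16 in Prc1, Cks2 and Cdk1, counted from the start with no base 0. Ttk and Prc1 hold 2 CCAAT boxes in this window, Cdk1 holds 3 and Cks2 holds 4.

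Of the 35 mitosis genes with a promoter in the table, 26 held a CHR (74.3%), against 11.7% of the promoters of 6275 measured genes and 18.3% of all 33469 promoters. CCAAT was found in 24 of the 35 (68.6%) and in 38.0% of the measured genes, and both motifs in 20 (57.1%) and in 4.75%. The 29 replication genes with a promoter held a CHR in 2 cases (6.9%) and CCAAT in 18 (62.1%). Over all 514 genes lower at 28 dpl with a promoter 19.8% held a CHR, and over 471 genes higher 9.55% did. The sterol regulatory element TCACNCCAC, where N is any base, was searched on both strands of the 12 cholesterol gene promoters in the table and had 0 matches there, against 1.12% of all promoters. A match is a run of letters and not a measured binding site, and no match says only that these letters are not in this window.

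Cdk1, the kinase that starts mitosis, was at 10.93, 10.83 and 11.33 at 14 dpl and at 9.17, 8.80 and 8.88 at 28 dpl. Ccnb2, a B-type cyclin that activates it, was at 11.19, 10.91 and 11.50 and then at 9.37, 9.20 and 8.94. The groups did not overlap, and the falls were 2.08 (SE 0.19, adjusted p = 0.000584) and 2.03 (SE 0.20, adjusted p = 0.000701), factors of 4.23 and 4.08 on the linear scale. Prc1, which bundles microtubules in the dividing cell's midzone, went from 11.08, 11.14 and 11.45 to 9.59, 9.19 and 9.02. Ttk, a kinase of the spindle checkpoint, went from 10.24, 10.06 and 10.01 to 8.84, 8.81 and 8.70. Their groups were separated by more than a full log2 unit. Among spindle motors, Kif11 fell by 1.78 (SE 0.16), Kif20a by 1.48 (SE 0.14) and Kif23 by 1.18. Of the checkpoint and segregation genes, Aurkb fell by 1.56 (SE 0.21), Cdc20 by 1.31 and Nuf2 by 1.39. Cks2, Cdkn3 and Dlgap5 fell by 1.65, 1.68 and 1.20. Plk1, Bub1b, Mad2l1 and Cdca3 fell to below the background on all 28 dpl arrays, so the differences of these 4 genes are limited by it. The 5 mitosis genes not called were Plk4, Incenp, Kif2c, Kif15 and Mybl2, with differences from -0.07 to -0.35.

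Pole2, a subunit of the leading strand polymerase, had the largest fall among replication genes, from 9.02, 8.88 and 9.12 to 8.03, 7.98 and 7.90. Gins1, a subunit of the replicative helicase complex, fell from 8.89, 8.69 and 8.75 to 7.94, 7.72 and 7.71, and Mcm6, another subunit of it, from 10.28, 10.20 and 10.47 to 9.51, 9.37 and 9.30. The arrays of these genes did not overlap between the times. Pcna, the sliding clamp, fell by 0.38 from a mean of 13.36, and Gmnn, geminin, which blocks re-replication, fell by 0.85. Among chromatin genes, H2ax, a histone variant marked at DNA breaks, fell from 11.81, 11.67 and 12.11 to 10.89, 10.85 and 10.69, and Hmgb2, a DNA-bending protein, by 1.15 (SE 0.21). Of 21 measured chromatin genes 8 were lower (38.1%, against 8.15% of all genes) and 1 was higher (4.76%, against 7.74%). The number lower was 5 without any 1 of the 14 dpl arrays, or without replicate 2 or 3 of 28 dpl. Cdk4, the G1 kinase, fell by 0.49 (SE 0.05), while the list of 20 genes for G1 cyclins, inhibitors and p53 targets held 3 lower and 1 higher, with 1 lower on omitting replicate 1 of 14 dpl, replicate 3 of 14 dpl or replicate 3 of 28 dpl.

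**Figure D4:**
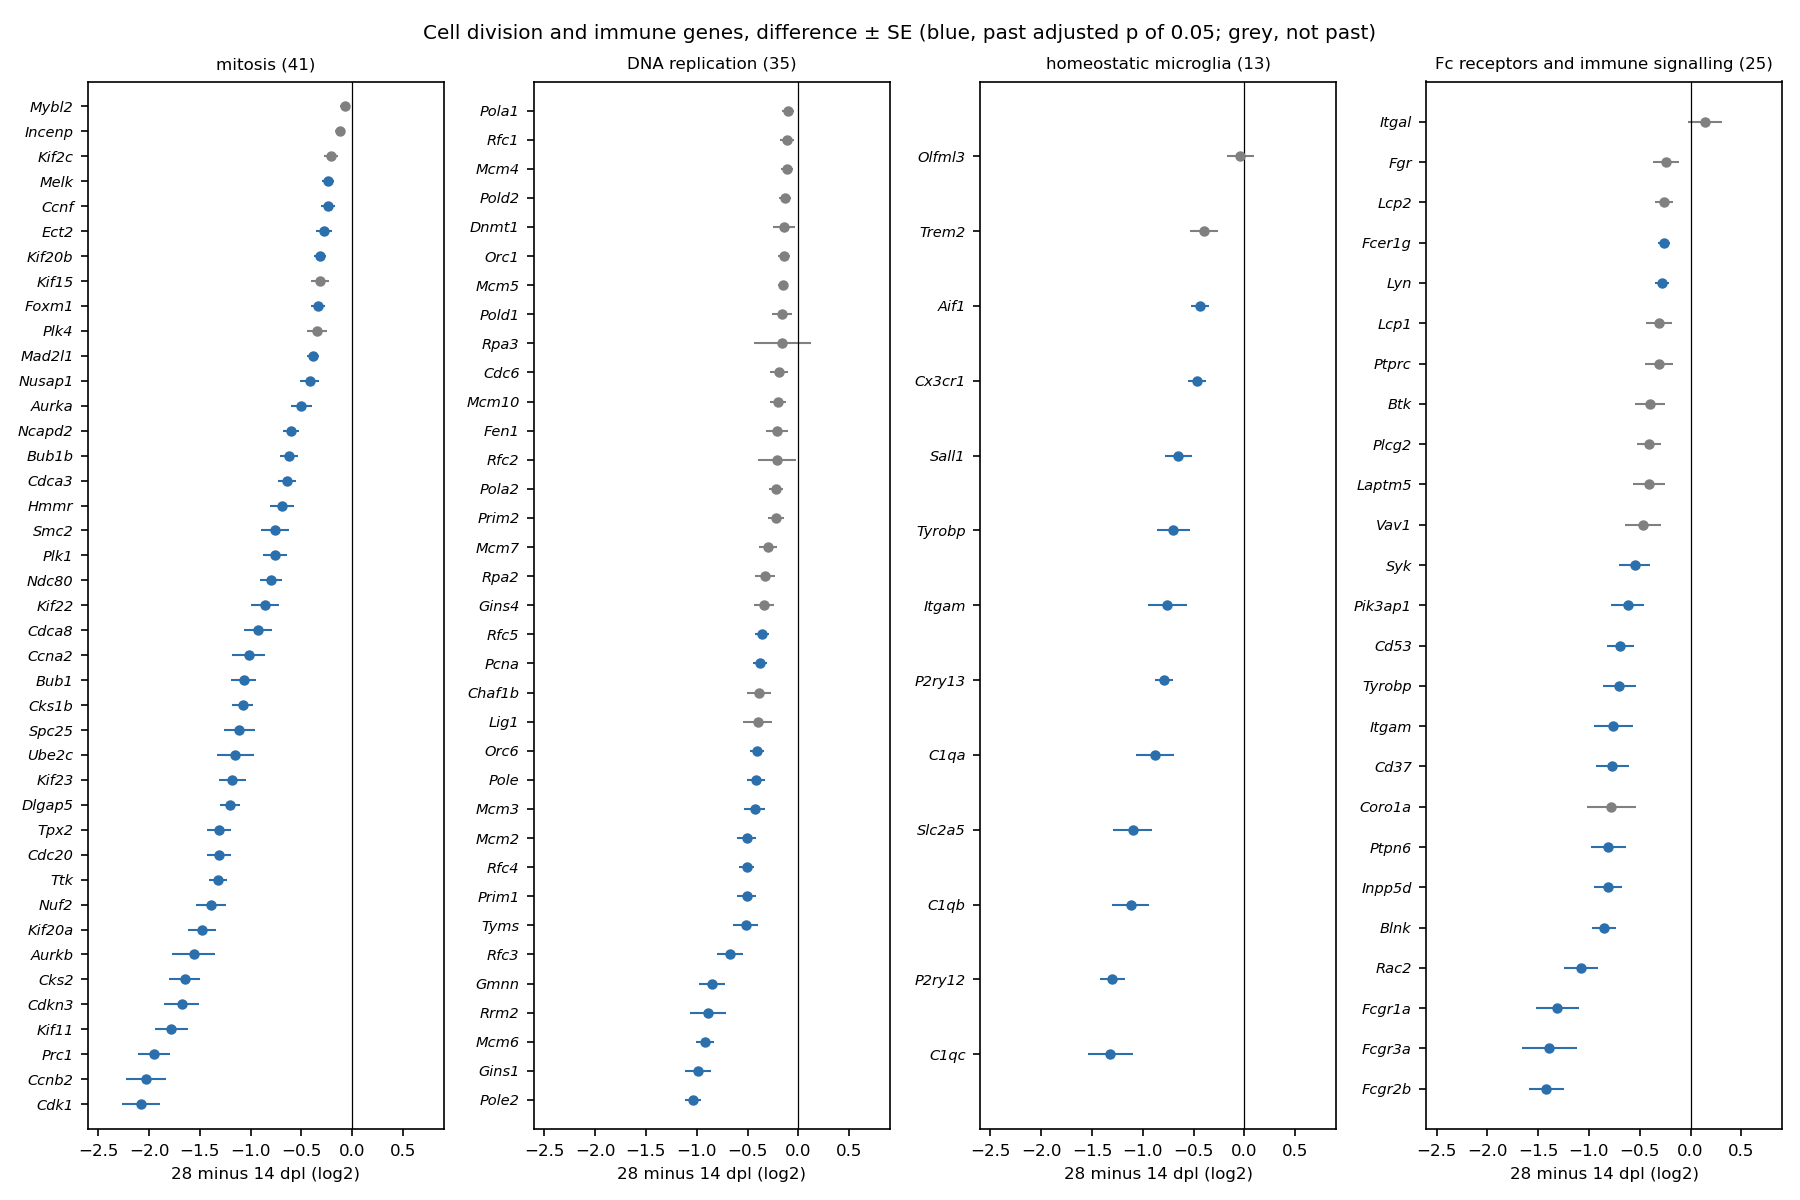
Difference between 28 and 14 dpl (log2, point) with its standard error (bar) for every measured gene of 4 lists; blue marks genes called lower and grey those not called. Mitosis has 36 of 41 genes in blue and reaches -2.08 at Cdk1, DNA replication has 15 of 35, homeostatic microglia 11 of 13, and Fc receptors and immune signalling 15 of 25.

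Microglial genes fell as well. Of 13 measured genes of homeostatic microglia 11 were called lower (84.6%, against 8.15% of all genes). None was higher, the median was -0.76, and between 8 and 11 were lower when 1 array was left out. Of 21 measured macrophage genes 5 were lower (23.8%) and none higher, with a median of -0.16. That count was 3 when any 1 of the 14 dpl arrays, or replicate 1 or 3 of 28 dpl, was left out. The difference between these 2 lists was not tested. P2ry12, the purinergic receptor of resting microglial processes, was at 10.05, 9.88 and 9.72 and then at 8.57, 8.39 and 8.79. All 28 dpl arrays lay below all 14 dpl arrays, and the difference was -1.30 (SE 0.12, adjusted p = 0.000584). P2ry13, a related receptor, fell by 0.79 (SE 0.09), Cx3cr1, the fractalkine receptor, by 0.47, and Sall1, a transcription factor of microglial identity, by 0.65. C1qb and C1qc, chains of the first complement component made by microglia, fell by 1.12 (SE 0.18) and 1.32 (SE 0.22). C1qb was at 14.48, 14.42 and 14.29 and then at 13.16, 13.75 and 12.93. Trem2, a lipid-sensing receptor of phagocytes, averaged 14.32 and 13.92 (adjusted p = 0.0961).

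Adgre1, the F4/80 receptor of macrophages and microglia, went from 11.87, 11.75 and 11.65 to 10.52, 10.80 and 10.57. Ly86, a partner of a toll-like receptor homologue, fell by 1.01 (SE 0.20). Several genes associated with lipid-laden phagocytes were not called. Spp1, osteopontin, averaged 14.22 and 14.35 (adjusted p = 0.189), Lgals3, galectin 3, averaged 14.54 and 14.57 (adjusted p = 0.874), and Gpnmb, a lysosomal glycoprotein, averaged 11.49 and 11.26 (adjusted p = 0.452). Of 19 genes for lipid handling by phagocytes 3 were lower (15.8%, against 8.15% of all genes) and none higher. Abcg1, a cholesterol exporter, fell from 12.67, 12.47 and 12.38 to 11.79, 12.06 and 11.81, and Lipa, the acid lipase that frees cholesterol in lysosomes, fell by 0.48 (SE 0.09).

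Of 25 measured genes of Fc receptors and immune signalling 15 were lower (60.0%, against 8.15% of all genes) and none higher, with a median of -0.62. The count was 8 on omitting replicate 1 of 28 dpl, 8 on omitting replicate 3 of 28 dpl and 9 on omitting replicate 1 of 14 dpl. Fcgr2b, the inhibitory receptor for antibody, went from 11.82, 11.12 and 11.12 to 9.83, 10.04 and 9.94. The high 14 dpl value was that of replicate 1, and the groups were apart by more than a full unit (difference -1.42, SE 0.17, adjusted p = 0.00188). Fcgr1a, the high-affinity receptor, fell by 1.31 (SE 0.21), Rac2, a GTPase of leukocytes, by 1.08 (SE 0.17), Blnk, an adaptor protein, by 0.85 (SE 0.12), and Inpp5d, a lipid phosphatase, by 0.81 (SE 0.14). Of 38 lysosome genes 10 were lower (26.3%) and none higher, with a median of -0.19. The number lower was 6 on omitting replicate 1 of 14 dpl, replicate 1 of 28 dpl or replicate 3 of 28 dpl. Grn, progranulin, fell by 0.83 (SE 0.14), Lgmn, the protease legumain, by 0.76 (SE 0.13), and Gusb, a glucuronidase, by 0.61 (SE 0.07). The cathepsin genes named here were not called: Ctsb averaged 14.67 and 14.68 (adjusted p = 0.964), and Ctsd averaged 14.22 and 14.10 (adjusted p = 0.556).

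The complement list moved both ways, with 4 of 15 genes higher (26.7%, against 7.74% of all genes) and 4 lower (26.7%, against 8.15%). Its median was 0.00. The number higher was 2 on omitting replicate 2 of 14 dpl or on omitting replicate 3 of 28 dpl. Beside the falls of C1qb and C1qc, Cfp, properdin, which stabilises the alternative pathway, fell by 1.04 (SE 0.17). Cd59b, an inhibitor of the membrane attack complex, rose from 10.20, 10.48 and 10.45 to 11.18, 11.36 and 11.25 (difference 0.89, SE 0.10), and Cfb, a component of the alternative pathway, rose by 0.66 (SE 0.13). Of 29 genes of the interferon response and antigen presentation 5 were lower (17.2%) and none higher. The number lower was 1 on omitting replicate 1 of 14 dpl and 2 on omitting replicate 3 of 28 dpl. It was 3 on omitting replicate 3 of 14 dpl or replicate 1 or 2 of 28 dpl. RT1-DMb, which loads peptides onto class II molecules, fell by 0.78 (SE 0.15), from 13.86, 13.61 and 13.42 to 12.84, 13.12 and 12.58. Of 27 genes for cytokines, chemokines and prostaglandins 3 were lower (11.1%) and none higher. The number lower was 5 on omitting replicate 1 of 5 dpl. It was 1 on omitting replicate 1 of 14 dpl, replicate 2 of 14 dpl or replicate 3 of 28 dpl. Among the 3 genes called lower was the chemokine gene Ccl6, which fell by 0.73 (SE 0.13). Mmp12, the macrophage elastase, fell from 9.27, 9.11 and 9.79 to 7.95, 7.78 and 8.24. Of 19 matrix proteases and inhibitors it was the 1 gene called (5.26%, under the 8.15% lower over all genes).

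**Figure D5:**
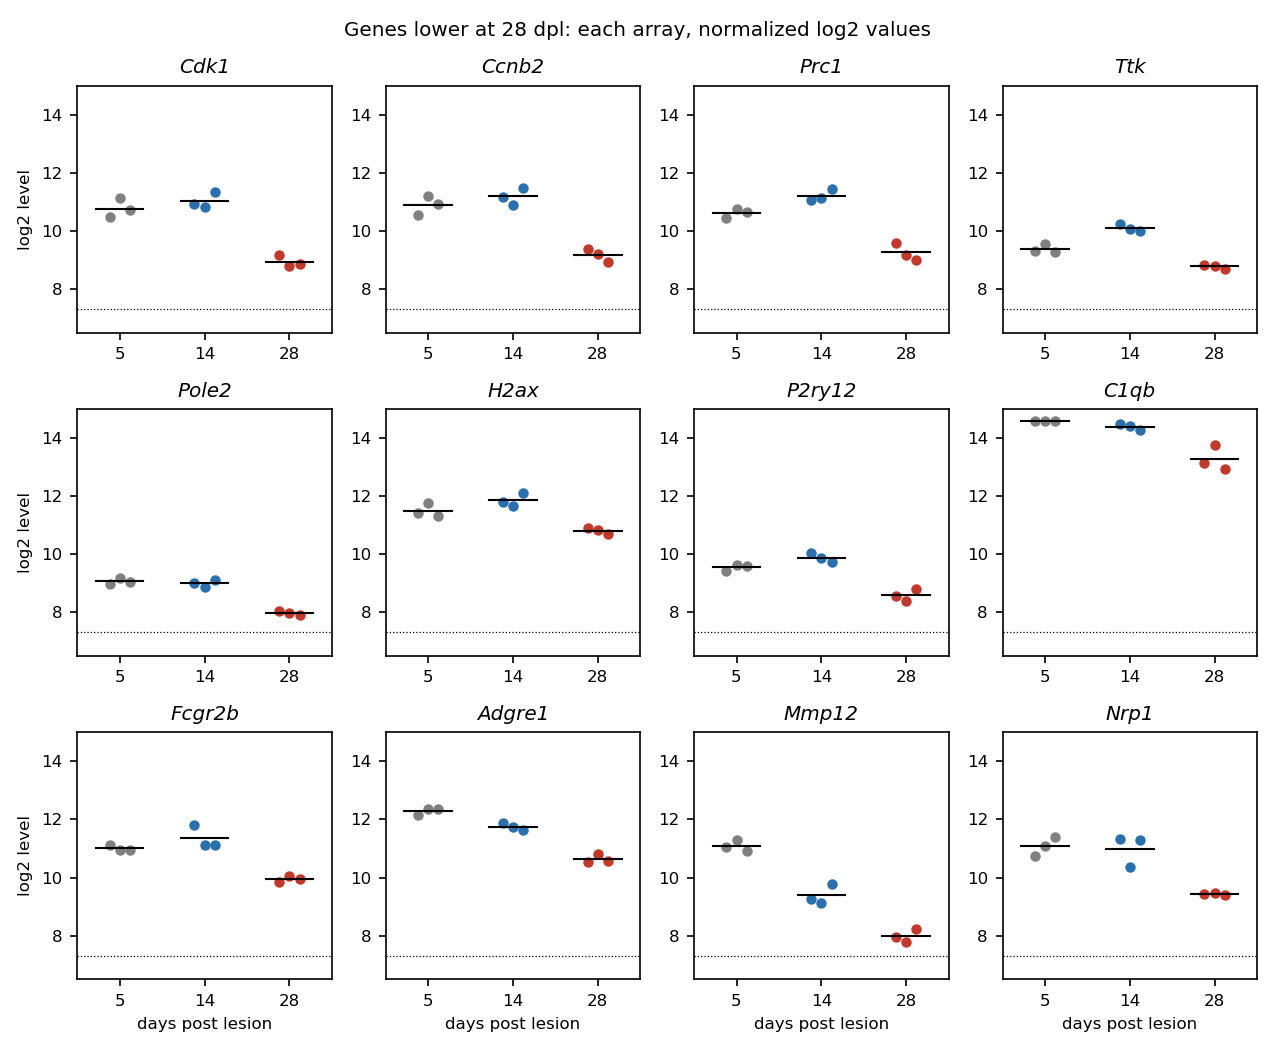
Normalized log2 level of 12 genes lower at 28 dpl on each array at 5 (grey), 14 (blue) and 28 (red) days post lesion; each point is 1 array, the bar is the mean of 3, and the dotted line is the estimated background of 7.31. In every panel the 28 dpl points lie below all 14 dpl points, by the most in Cdk1 with a difference of -2.08.

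Lists of growth factors, guidance, cytoskeleton and transport genes held members that changed in both directions, and their shares are given against 7.74% higher and 8.15% lower over all genes. Cntf, a trophic factor for oligodendrocytes and neurons, rose from 9.20, 9.17 and 9.17 to 10.11, 10.18 and 10.55 (difference 1.10, SE 0.10, adjusted p = 0.000657). Tgfa, a ligand of the epidermal growth factor receptor, rose by 0.67 (SE 0.13) and Tgfb2 by 0.54 (SE 0.09), and of 23 genes for growth factors and receptors 4 were higher (17.4%) and 2 lower (8.7%). The number lower was 0 on omitting replicate 2 of 14 dpl or replicate 2 of 28 dpl, and 1 on omitting replicate 1 of 14 dpl or replicate 1 or 3 of 28 dpl. Of 21 axon guidance genes 7 were higher (33.3%) and 2 lower (9.52%), with a median of 0.22; 4 were higher and 1 lower on omitting replicate 1 of 14 dpl or replicate 1 of 28 dpl. Nrp1, a receptor for class 3 semaphorins and for vascular growth factor, fell from 11.32, 10.36 and 11.28 to 9.44, 9.48 and 9.41, with replicate 2 of 14 dpl well below the other 2 (difference -1.54, SE 0.25). Sema3b, a secreted class 3 semaphorin, rose by 1.23 (SE 0.23) from 9.18, 9.76 and 10.01, and its groups did not overlap. Epha4, an ephrin receptor, rose by 0.93 (SE 0.14), and Rtn4, which encodes the neurite growth inhibitor Nogo, by 0.56 (SE 0.10).

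Of 33 actin cytoskeleton genes 9 were lower (27.3%) and 2 higher (6.06%), with a median of -0.21. The number higher was 4 on omitting replicate 2 of 28 dpl, and 3 to 5 were lower on omitting replicate 1 of 14 dpl (3), replicate 3 of 14 dpl (4), replicate 1 of 28 dpl (4) or replicate 3 of 28 dpl (5). Was, an actin regulator of blood cells, fell by 0.67 (SE 0.13) and Arpc3, a subunit of the actin-branching complex, by 0.50 (SE 0.09), while Tpm1, a tropomyosin, rose by 1.00 (SE 0.11). Of 28 microtubule genes 6 were higher (21.4%) and 2 lower (7.14%), with 1 lower on omitting replicate 3 of 14 dpl or replicate 1 or 3 of 28 dpl; Tubb2a rose by 0.51 and Tubb5 fell by 0.70, so members of the tubulin family went both ways. Among 23 solute carriers of glia, the creatine transporter gene Slc6a8 rose from 10.09, 10.38 and 10.12 to 11.32, 11.33 and 11.27, and the glycine transporter gene Slc6a9 from 7.57, 7.50 and 7.63 to 8.58, 8.34 and 8.45. Slc2a5, a fructose transporter gene of microglia, fell from 12.97, 12.74 and 12.26 to 11.72, 11.63 and 11.30. On that list 5 genes were higher (21.7%) and 3 lower (13%).

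Of 17 genes for retinoid receptors, their partners and retinoid metabolism, 4 were higher (23.5%, against 7.74% of all genes) and none lower. The number higher was 1 or 2 when replicate 3 of 5 dpl or any array of 14 or 28 dpl was left out. With probes above background on all 9 arrays, 0 of the 10 genes tested were higher. Only 1 of the 4 was called in every setting that tested it. That gene was Aldh1a1, which oxidises retinaldehyde to retinoic acid: it went from 9.14, 9.07 and 9.13 to 11.09, 11.04 and 11.11 (difference 1.97, SE 0.34, adjusted p = 0.0074). Its arrays were nearly level within each of these times, with an SD of 0.04, while those at 5 dpl were at 8.86, 7.27 and 7.48 and enter the same SE. Rxrg was at 11.22, 11.78 and 11.59 at 14 dpl and at 11.59, 10.68 and 10.93 at 28 dpl. The groups overlapped, with replicate 1 of 28 dpl level with the 14 dpl arrays, and the difference of -0.47 (SE 0.24) was not called (adjusted p = 0.233). Rxra averaged 7.39 and 7.38, close to the background, and Rxrb averaged 9.86 and 10.02 (adjusted p = 0.138).

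The genes of housekeeping machinery had small differences. The shares called here stand against 7.74% higher and 8.15% lower over all genes. Of 54 genes of the respiratory chain and ATP synthase 1 was lower (1.85%) and none higher, with a median of -0.01 and a range of differences from -0.39 to 0.17. Of 54 ribosomal protein genes 4 were lower (7.41%) and none higher, with a median of -0.10. The number lower was 8 on omitting replicate 2 of 5 dpl and 2 on omitting replicate 1 of 14 dpl. On the 28 dpl arrays 16 of the 54 lay entirely below 14 dpl and 0 entirely above, against 20.7% and 19.3% of all genes. Of 32 proteasome genes 2 were lower (6.25%) and none higher. That count was 0 or 1 when any array of 14 or 28 dpl other than replicate 1 of 28 dpl was left out. Rpl31 and Rpl6, of the large ribosomal subunit, fell by 0.51 and 0.27. Of 35 genes of collagens and fibrous matrix 2 were higher (5.71%) and 2 lower (5.71%). Thbs2, a matrix glycoprotein, rose by 0.72 and Plod1, a collagen lysyl hydroxylase, fell by 0.45. On omitting replicate 1 of 5 dpl 4 of the collagen and matrix genes were higher, on omitting replicate 1 of 14 dpl 1 was, and 1 was lower on omitting replicate 2 or 3 of 14 dpl or of 28 dpl.

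Markers of other cell types that the captured tissue could hold were measured as well. Of 21 neuron and axon genes 1 was called higher (4.76%, against 7.74% of all genes), Sncg, a synuclein, which rose by 0.94 (SE 0.16). The list median was 0.45, with 20 positive differences and 1 negative. On the 28 dpl arrays 17 of the 21 lay entirely above 14 dpl (19.3% of all genes did) and 0 entirely below (20.7%). Omitting replicate 1 of 5 dpl, or with the 6 compared arrays alone, 12 of the 21 were higher. Its score, the mean of the log2 values relative to all 9 arrays, was -0.38, -0.38 and -0.26 at 14 dpl and 0.16, 0.23 and 0.25 at 28 dpl, against 1.01 on replicate 1 of 5 dpl. The neuronal score thus moved in the same direction as the oligodendrocyte lists, and its part in them was not tested. None of the defining neuronal markers Snap25, Syt1 and Syp lay below the background on all 6 arrays. Snap25, a synaptic protein, was at 7.75, 7.52 and 8.22 and then at 9.20, 9.67 and 9.66 (adjusted p = 0.204). These markers were each called higher only on omitting replicate 1 of 5 dpl or with the 6 compared arrays alone.

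Among blood-derived and border cells, 1 of 14 T and natural killer cell genes was called lower (7.14%, against 8.15% of all genes) and none higher. Cd3e, 1 of 3 measured T cell receptor subunits, lay below the background on all 6 arrays, while Cd3d and Cd3g did not. None of 5 neutrophil genes, 2 B cell genes, 3 red blood cell genes, 11 meningeal fibroblast genes or 4 choroid plexus genes was called. At an unadjusted p under 0.05, 2 neutrophil genes were lower and 0 genes of the other lists passed. Over all 7574 genes 2372 passed in either direction. The red blood cell score was -0.02, -0.06 and 0.29 at 14 dpl and -0.27, -0.58 and -0.84 at 28 dpl, and it ranged from -0.72 to 1.63 at 5 dpl. Ttr, transthyretin, a product of choroid plexus, was at 7.33, 8.22 and 10.73 at 14 dpl and 7.52, 8.01 and 7.06 at 28 dpl, so replicate 3 of 14 dpl alone was high. Of 19 endothelial and pericyte genes 1 was higher (5.26%, against 7.74% of all genes) and none lower. It was Mfsd2a, a lipid transporter of brain vessels, which rose by 0.62 (SE 0.11). The list median was -0.13, with 13 negative and 6 positive differences.

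A test of the later against the earlier interval asked whether the step from 14 to 28 dpl differed from the step from 5 to 14 dpl. The earlier step had 829 genes higher (10.9%) and 864 lower (11.4%), and both steps share the 14 dpl arrays. The difference between steps was called for 146 genes with the higher later step (1.93%) and 183 with the lower later step (2.42%). Of the 586 genes higher at 28 than at 14 dpl, 244 had also been called higher in the earlier step, 29 lower and 313 neither. Of the 617 lower genes 129 had been called lower before, 49 higher and 439 neither. Genes whose difference between steps is called below kept that call in all settings that gave it.

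Hapln2 had fallen by 0.71 in the earlier step and rose by 2.91 in the later one (adjusted p of the difference 0.00418). Qdpr had a first step of 0.16 that was not called and a second of 1.42 (adjusted p = 0.00466), and Ddit3 fell by 0.63 and then rose by 0.57 (adjusted p = 0.00855). On the oligodendrocyte enzyme list that holds Qdpr, 2 of 19 genes had the higher later step and 3 the lower. Over all genes 1.93% and 2.42% did. When 1 array was left out, 1 of the 19 had the higher later step and 0 to 4 the lower. Of 13 myelin structure genes 0 had the higher later step and 2 the lower, 0 to 4 when 1 array was left out. All 13 had been called higher in the earlier step, with a median of 1.49, against 0.91 in the later step. Mog rose by 3.20 and then by 1.71, and the difference between its steps was not called (adjusted p = 0.129). In the other direction, 19 of 41 mitosis genes had a lower later step, against 2.42% of all genes, and between 9 and 21 did so when 1 array was left out; the 9 came on omitting replicate 2 of 14 dpl and on omitting replicate 3 of 14 dpl, and the count was 10 on omitting replicate 1 of 14 dpl. Ttk rose by 0.71 and then fell by 1.32 (adjusted p = 0.00412), and Prc1 rose by 0.60 and then fell by 1.95 (adjusted p = 0.00594). Cdk1 had a first step of 0.25 that was not called and a second of -2.08 (adjusted p = 0.0116). P2ry12 had a first step of 0.33, not called, and a second of -1.30 (adjusted p = 0.00905). Rxrg rose by 3.35 between 5 and 14 dpl, and its later step of -0.47 differed from that (adjusted p = 0.00594).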

How the data were processed

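The authors deposited normalized values for 10552 probes and a raw table for 22226 targets. The deposited log2 values have equal medians of 8.31 on the 9 arrays; their transform and software: not given in the sources used here. The deposited raw intensity values are average bead signals, and the deposited detection p-value of each target came with them, per the file headers. Exactly 10552 raw targets had a detection p-value of at most 0.01 on at least 1 array, but the tables share 0 identifiers, so raw targets are unnamed. Set against sorted raw log2 signals, the deposited log2 values rise with a slope of 0.51 at a raw value of 6.5 and 0.96 at 10. Probes were named from the platform annotation, with symbols updated through RefSeq (GRCr8): 7679 probes had 1 symbol, 0 had several and 2873 had none. A gene was represented by its brightest probe, and 19 of 103 genes with several probes had probes that differed in call.

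limma 3.58.1 in R 4.3.3 was fitted to all 9 arrays as 3 group means, with p-values adjusted by Benjamini-Hochberg over all probes. The raw table was corrected and normalized with neqc (offset 16), keeping 9404 targets detected at p under 0.01 on at least 3 arrays. The fit was tested on simulated data. Precision is limited by 3 arrays a group. The alternatives were the arrays fitted, array weights, spread models, normalizations, filters on dim probes, the probe rule, a replicate block and leaving out single arrays.

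The members and gene lists were chosen with earlier results of these data known. Some genes belong to several lists, so their calls are counted in each. Omg is on the myelin structure and node lists, and C1qb on the microglia and complement lists. Genes named by rule were the 15 highest and 15 lowest differences among called genes without overlap and above background in the brighter group, for each list its 6 smallest p at most, the first 3 of each marker list, and Rxra, Rxrb and Rxrg. Other list members, most of them given as not called, were chosen after their values were seen.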

Additional observations from a re-analysis of the deposited data

How the results depend on the processing

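The count of called probes, 790 higher and 789 lower, stayed within 1.5 times under the other spread models, normalizations, filters on dim probes, array weights and the 6 compared arrays alone. Leaving out single arrays gave 442 to 1082 higher, 389 to 968 lower and 836 to 2050 in all. The difference between intervals was called for 179 probes higher and 236 lower, 415 in all; array weights gave 428, 490 and 918, and leaving out single arrays gave 18 to 323, 42 to 290 and 60 to 613. On the raw signals, scaling to the 75th percentile gave 268 higher, 360 lower and 628 in all, keeping all targets gave 332 lower, and leaving out single arrays gave 375 to 840, 268 to 650 and 670 to 1490. The causes of these shifts were not tested. Same-numbered arrays of 14 and 28 dpl had correlations of deviations of -0.14, -0.29 and 0.15, so the numbers were not taken to pair samples; with the replicate block 570 probes were higher and 500 lower, and the difference between intervals was called for 102 higher, 97 lower and 199 in all. With probes above background on all 9 arrays, 26 mitosis genes were tested and 25 of them were called lower. The number of neuron and axon genes called higher was 7 with array weights. The compressed scale near the background limits the differences of dim genes, and 70 called genes lay below it at one of the times. Among genes given as not called, differences near 0 changed sign: array weights gave 0.01 for Acly, -0.0 for Cntn1, -0.02 for Ctsb, -0.02 for Lgals3, 0.0 for Nfasc and cyclic loess gave 0.04 for Acly, -0.01 for Cd3e, 0.05 for Tf, and leaving out single arrays gave -0.04 to 0.05 for Cntn1, -0.06 to 0.02 for Nfasc, -0.06 to 0.26 for Sirt2, -0.08 to 0.04 for Acly, -0.01 to 0.02 for Cd3e, -0.08 to 0.06 for Ctsb, -0.0 to 0.11 for Ebp, -0.03 to 0.0 for Stard4, -0.05 to 0.02 for Tf, -0.06 to 0.08 for Lgals3, -0.23 to 0.03 for Pdgfra, -0.22 to 0.03 for Ctsd and -0.03 to 0.0 for Rxra.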
